A study of Mus musculus with 9 samples.

Results

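The RNA of 10 genes with known roles in germ cells, Stra8, Sohlh2, Taf7l, Dazl, Tex14, Tex101, Slc25a31, Tex11, Prdm9 and Majin, was followed in mouse embryonic stem cells (ESCs) with altered RBBP4. They are 10 of the 25239 gene symbols in the count files, they were taken by symbol, and all 10 were found. They had been picked because their counts were higher in the Rbbp4 mutant libraries than in the control libraries, so the comparison of a mutant with the control is described for them without a test. The comparison between the mutant lines played no part in that choice and was tested.

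The control was the E14 line of mouse ESCs with the genotype Rbbp4+/+, from the strain labelled 12910la, and 2 mutant lines had been made from it with Cas9. In Rbbp4 Ins/Ins, both alleles carry a small insertion that keeps the reading frame, exchanges 1 residue of RBBP4 and adds another, and in Rbbp4 Ins/Del 1 allele carries that insertion and the other an in-frame deletion. RBBP4 is a histone-binding protein shared by Polycomb, deacetylase and chromatin assembly complexes. The mutants are called the Ins/Ins line and the Ins/Del line here. All 3 lines were grown alike in serum with leukemia inhibitory factor, with 3 libraries per line, so 9 libraries were compared. Each mutant line is 1 clone, so an effect of the Rbbp4 alleles and a property of the clone cannot be told apart. The sources do not say whether the libraries of a line came from separate cultures, and p-values measure the spread between these libraries, which may be technical.

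Germ cells form from pluripotent cells of the embryo, divide as gonocytes and spermatogonia or oogonia, and then enter meiosis, in which homologous chromosomes pair, recombine and separate. Entry into meiosis is started by retinoic acid through STRA8, with DAZL making germ cells able to respond. In ESCs and somatic tissues many of these genes are held at low levels by DNA methylation and by a Polycomb complex that contains E2F6, MGA, MAX and PCGF6.

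Library totals ranged from 15838064 to 21366868 counted reads, and 14125 genes passed the filter on low counts, all 10 germ cell regulators among them. A normalized count is a read count scaled to the mean effective size of the 9 libraries. Rbbp4 itself lay between 9932 and 10117 normalized counts in the control, between 5485 and 5776 in the Ins/Ins line and between 10129 and 10603 in the Ins/Del line, and a count per gene cannot show which allele is read. All 12 markers of pluripotent stem cells passed the filter, and their summed level was 107116 to 111853 normalized counts in the control and 134232 to 137357 over both mutant lines. Of the 12, 7 rose and 2 fell in both mutants at an adjusted p of at most 0.01 in edgeR, beside 25.6% and 26.7% of all genes tested. Of 15 spermatid markers, 13 had at most 3 reads in every library, and Prm1, Prm2 and Tssk2 had none. Of 14 markers of the somatic gonad, 3 passed the filter.

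The 10 genes lie on 7 chromosomes of the mouse genome build GRCm38 (mm10), as annotated by GENCODE. Dazl lies on chromosome 17 from 50279395 to 50293636 and Prdm9 on the same chromosome from 15543079 to 15564354, both on the minus strand. Sohlh2 lies on chromosome 3 from 55182028 to 55209957 and Slc25a31 on the same chromosome from 40708855 to 40726096, both on the plus strand. Taf7l and Tex11 are X-linked, from 134460118 to 134476490 and from 100838648 to 101059667 on the minus strand. Stra8 occupies chromosome 6 from 34920163 to 34939344 on the plus strand, and Tex101 occupies chromosome 7 from 24668007 to 24676675 on the minus strand. Tex14 spans chromosome 11 from 87405065 to 87555823, and Majin spans chromosome 19 from 6184388 to 6224225, both on the plus strand. All 10 are annotated as protein coding, and no exon of theirs overlaps an exon of another annotated gene, though Tex11, Tex14 and Prdm9 contain other annotated genes in their introns or span.

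RefSeq promoter windows, 250 bases before to 50 bases after a start site, were at hand for 8 of the 10 genes, in 9 windows since Prdm9 has 2. Tex11 and Majin had none. The windows were searched on both strands for TTCCCGC, the core of a site for E2F proteins, for CACGTG, the E-box that MAX dimers bind, and for GGGCGG, the GC box. The stretches before the start site that hold an E2F or E-box match are printed from GRCm38.p6, 5′ to 3′ on the strand of the gene, with the match in capitals and up to 40 bases on each side. They are shown because E2F6 and MAX, named above, bind letters of these kinds.
Prdm9 (chr17:15564375-15564441, minus strand): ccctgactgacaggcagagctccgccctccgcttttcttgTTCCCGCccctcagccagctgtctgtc
Tex14 (chr11:87404913-87404999, plus strand): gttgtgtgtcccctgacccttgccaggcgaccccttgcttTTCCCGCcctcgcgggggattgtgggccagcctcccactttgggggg
Slc25a31 (chr3:40708738-40708823, plus strand): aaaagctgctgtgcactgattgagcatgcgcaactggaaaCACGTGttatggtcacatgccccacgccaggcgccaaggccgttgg
Taf7l (chrX:134476511-134476579, minus strand): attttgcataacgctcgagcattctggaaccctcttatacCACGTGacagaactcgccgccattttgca

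The E2F letters begin 47 bases before the start site in Prdm9 and 112 bases before it in Tex14, and Slc25a31 holds a further match that begins at base 20 of the transcript. In Prdm9 and in Tex14 the last letters of the E2F match are also the first letters of a GC box on the other strand, so these matches overlap. TTCCCGC was thus in 3 of the 9 windows, of 3 genes, beside 8.21% of the windows of the genes tested and 4.60% of all 32851 windows. The E-box begins 93 bases before the start in Slc25a31 and 49 bases before it in Taf7l, and 9.88% of the windows of the genes tested and 7.15% of all windows hold it. The GC box was in 5 of the 9 windows, 1 each of Prdm9, Slc25a31, Sohlh2, Tex101 and Tex14, beside 61.6% of the windows of the genes tested. None of these letters was in the windows of Dazl and Stra8. The windows held between 3.0 CG dinucleotides per 100 bases, in 1 window of Prdm9, and 9.33, in Dazl, with a median of 6.67 in the windows of the genes tested and 2.33 in all windows. A match is a description of these letters, and no binding was measured here.

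Among the transcriptional regulators, Sohlh2 had the highest counts of all 10 genes in both mutant lines, and in the control its mean was below those of Dazl and Tex14. It encodes a basic helix-loop-helix factor of spermatogonia and growing oocytes. Its normalized counts were 215, 243 and 188 in the control, 1405, 1387 and 1383 in the Ins/Ins line and 1691, 1647 and 1606 in the Ins/Del line. The 3 lines did not overlap, with the control lowest and the Ins/Del line highest. The log2 fold change was 2.69 ± 0.06 (SE) in the Ins/Ins line and 2.93 ± 0.06 in the Ins/Del line, so the mean was 6.46-fold and 7.65-fold that of the control. In bulk RNA, more cells with a transcript and more transcript per cell cannot be told apart, here and for the genes that follow. Sohlh1, the partner with which SOHLH2 forms dimers, had at most 6 reads in any library and did not pass the filter.

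Stra8, which retinoic acid induces before meiosis, had 98.3, 108 and 83.4 normalized counts in the control, 432, 427 and 417 in the Ins/Ins line and 496, 430.4 and 429 in the Ins/Del line. All mutant libraries lay above the control, and the mutant lines overlapped. Its log2 fold change was 2.13 ± 0.10 in the Ins/Ins line and 2.22 ± 0.10 in the Ins/Del line. Gm4969, the symbol in these files for Meiosin, the partner of Stra8 in meiotic entry, had a log2 fold change of 0.37 in the Ins/Ins line, which did not pass the test (adjusted p = 0.102, quasi-likelihood test of edgeR, adjusted after Benjamini and Hochberg), and of 1.07 in the Ins/Del line, which did (adjusted p = 3.31e-06), and the lines differed by 0.70 (adjusted p = 0.00404, edgeR).

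Taf7l encodes the germ cell form of TAF7, a subunit of the general transcription factor TFIID. It had 106, 102 and 119 normalized counts in the control, 328, 346 and 289 in the Ins/Ins line and 346, 420.5 and 319 in the Ins/Del line. The mutant libraries were all above the control and spread over a range in which the lines overlapped. Its log2 fold change was 1.56 ± 0.11 and 1.74 ± 0.11 in the same order. The widely expressed paralogue Taf7 stood at 2649 ± 117 normalized counts in the control (SD, n = 3), 2811 ± 161 in the Ins/Ins line and 2826 ± 51.0 in the Ins/Del line. The change of Taf7 did not pass the limit of 0.01 in either mutant (log2 fold change 0.08 and 0.09, adjusted p = 0.0592 and 0.0339, edgeR).

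Dazl encodes an RNA-binding protein that promotes translation of germ cell messages. Its normalized counts were 249, 264 and 281 in the control, 709, 733 and 710.4 in the Ins/Ins line and 914, 925 and 877 in the Ins/Del line. As for Sohlh2, no library of any line overlapped with those of another, and the Ins/Del line was highest. The log2 fold change was 1.44 ± 0.06 in the Ins/Ins line and 1.78 ± 0.06 in the Ins/Del line. Boll, the paralogue from the same family, fell, from 49.5 ± 4.20 normalized counts (SD, n = 3) in the control to 30.0 ± 3.16 in the Ins/Ins line and 22.1 ± 7.15 in the Ins/Del line (log2 fold change -0.74 and -1.19, edgeR adjusted p = 0.0032 and 2.67e-05). Ddx4, a helicase used as a general marker of germ cells, had 700 ± 38.4 normalized counts in the control and log2 fold changes of -0.06 and 0.05, which did not pass the test (adjusted p = 0.352 and 0.406, edgeR).

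Tex14 encodes a protein of the bridges that join dividing germ cells, where it binds CEP55 and keeps the cells from separating. It had 250.5, 197 and 199 normalized counts in the control, 453, 472 and 503 in the Ins/Ins line and 493, 492 and 429 in the Ins/Del line. Every mutant library lay above every control library and the mutant lines covered the same range. The log2 fold change was 1.13 ± 0.08 and 1.12 ± 0.08.

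Tex101 encodes a protein anchored to the surface of germ cells and needed for fertile sperm. It had the fewest reads of the 10 genes in the control, with 8, 5 and 4 in its libraries, 95, 84 and 55 in the Ins/Ins line and 99, 107 and 76 in the Ins/Del line. Normalized, these were 6.84, 5.24 and 4.33 in the control, 81.3, 94.8 and 58.1 in the Ins/Ins line and 101, 96.5 and 87.9 in the Ins/Del line. Its log2 fold change was the largest of the 10, 3.78 ± 0.28 and 4.07 ± 0.27, and rested on 4 to 8 reads per control library. The mutant lines overlapped, and both stood far above the control.

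Slc25a31 encodes the germ cell form of the mitochondrial ADP/ATP carrier. It had 76.1, 57.6 and 53.1 normalized counts in the control, 136, 138 and 138 in the Ins/Ins line and 144, 149 and 157 in the Ins/Del line, and the 3 lines did not overlap. The log2 fold change was 1.12 ± 0.14 and 1.25 ± 0.13. Its paralogues, which carry out the same exchange in other tissues, moved little and in opposite directions. Slc25a4 fell, with log2 fold changes of -0.22 and -0.39 (edgeR adjusted p = 5.24e-07 and 9.89e-13), and Slc25a5 rose, with 0.19 and 0.18 (edgeR adjusted p = 1.54e-07 and 3.36e-07).

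Tex11, Prdm9 and Majin act on meiotic chromosomes. Tex11, an X-linked gene needed for pairing and crossover formation, had 186, 153 and 161 normalized counts in the control, 409.7, 487 and 428 in the Ins/Ins line and 555, 605 and 591 in the Ins/Del line. The 3 lines did not overlap, and the log2 fold change was 1.39 ± 0.09 and 1.80 ± 0.08. Prdm9, the zinc finger methyltransferase that places recombination hotspots, had 22.2, 24.1 and 27.1 normalized counts in the control, 54.7, 55.3 and 45.5 in the Ins/Ins line and 44.0, 44.2 and 63.6 in the Ins/Del line. Its mutant lines overlapped, and its log2 fold changes of 1.09 ± 0.22 and 1.04 ± 0.22 were the smallest among the 10 in both mutants. Majin, which with TERB1 and TERB2 fixes telomeres to the nuclear membrane, had 47.0, 60.8 and 37.9 normalized counts in the control, 125, 125 and 158 in the Ins/Ins line and 113, 152 and 115 in the Ins/Del line. Its mutant lines also overlapped above the control, with log2 fold changes of 1.48 ± 0.16 and 1.40 ± 0.16.

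**Figure D1:**
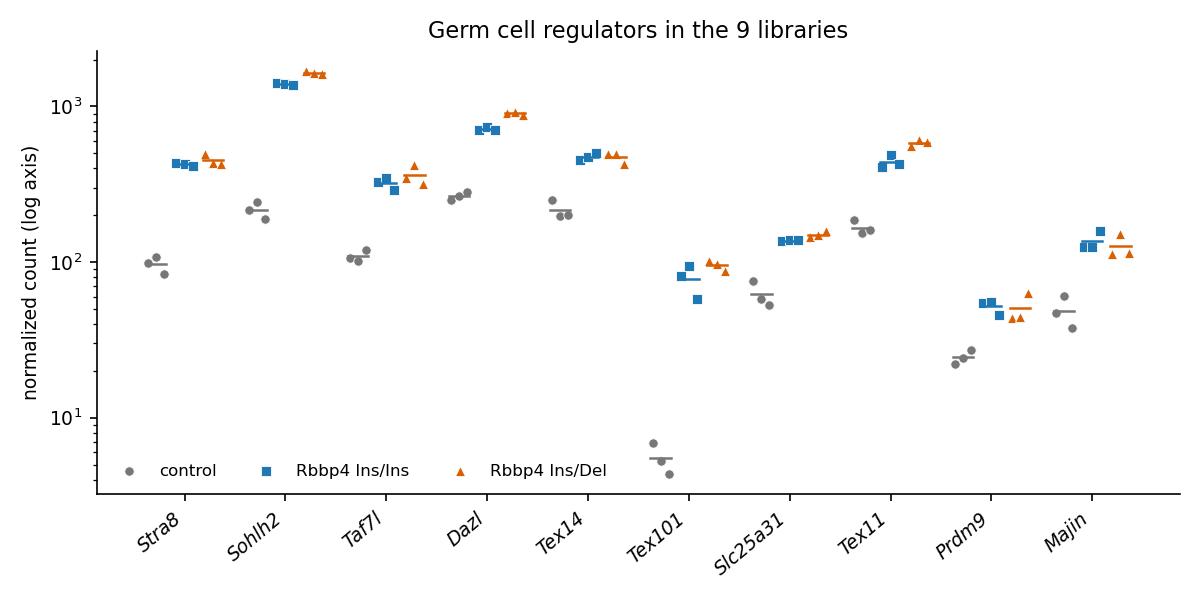
Normalized counts (log axis) of the 10 germ cell regulators in 9 libraries, with 3 points and a bar at the mean for control (circles), the Ins/Ins line (squares) and the Ins/Del line (triangles). Every mutant point lies above every control point of the same gene, from Tex101 with 4.33 to 6.84 in the control to Sohlh2 with 1606 to 1691 in the Ins/Del line.

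For all 10 genes, every mutant library lay above every control library, as it did for 30.4% of the genes tested. Of all genes tested, 29.0% passed the limit of 0.01 in the higher direction in the Ins/Ins line and 30.6% in the Ins/Del line. No such test is given for the 10, and nothing is read from their lying above the control, since they were chosen on this contrast. Their log2 fold changes ran from 1.09 to 3.78 with a median of 1.46 in the Ins/Ins line and from 1.04 to 4.07 with a median of 1.76 in the Ins/Del line, where the median of all genes tested was 0.00 and -0.01. The gene nearest above a 2-fold limit was Prdm9, and its lowest log2 fold change over the alternative settings was 0.86 in the Ins/Del line, below that limit. Of the other germ cell genes called higher in both mutants, those just outside it in 1 mutant were Dmrt1, with 1.04 and 0.89, and Ccdc155, the symbol for Kash5, with 1.31 and 0.96. Among those called lower, Nr6a1 was nearest to the limit, with -0.95 and -1.16. Both mutants were set against the same control libraries. The summed level of the 10 genes was 1155 to 1256 normalized counts in the control, 4129 to 4265 in the Ins/Ins line and 4676 to 4962 in the Ins/Del line.

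Replicates were close. The coefficient of variation within a line was between 0.866%, for Sohlh2 in the Ins/Ins line, and 23.7%, for Tex101 in that line, with a median of 9.20% over the 30 combinations of gene and line. It was above the value that counting alone gives in 19 of the 30. Control library 1 held the highest Tex14, Slc25a31, Tex11 and Tex101 values of its line.

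The mutant lines were then compared with each other, which shows whether the genes stood at the same height in both. The Ins/Del line was higher than the Ins/Ins line for Tex11, Dazl and Sohlh2, and the other 7 genes did not pass the limit of 0.01. This is 3 of 10, beside 10.8% of the genes tested called in either direction, 6.17% called higher and 4.64% called lower. The log2 difference was 0.41 for Tex11 (95% interval 0.27 to 0.55, adjusted p = 3.53e-05, edgeR), which is a mean 32.2% higher. It was 0.34 for Dazl (0.23 to 0.45, adjusted p = 9.61e-06, edgeR), a mean 26.1% higher. For Sohlh2 it was 0.24 (0.15 to 0.34, adjusted p = 0.000112, edgeR), a mean 18.4% higher. For each of the 3 genes all Ins/Del libraries lay above all Ins/Ins libraries, as they did for 17.4% of the genes tested.

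Slc25a31 was the fourth gene whose mutant lines did not overlap, and its log2 difference of 0.13 had an interval of -0.11 to 0.36 (adjusted p = 0.502, edgeR). The interval for Taf7l, 0.00 to 0.36, lay just above 0, with an unadjusted p of 0.0452 in edgeR and an adjusted p of 0.151. For Tex101 the interval of -0.03 to 0.61 was the widest of the genes with a higher estimate (adjusted p = 0.207, edgeR). Stra8 differed by 0.09 with an interval of -0.06 to 0.24 (adjusted p = 0.451, edgeR). Tex14, Prdm9 and Majin had estimates of -0.01, -0.05 and -0.08, with intervals of -0.16 to 0.14, -0.44 to 0.33 and -0.36 to 0.19. Their signs changed when a library was left out or, for Tex14, under DESeq2 size factors, so no direction can be given for them. The intervals of Prdm9 and Tex101 leave room for differences as large as that of Tex11.

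**Figure D2:**
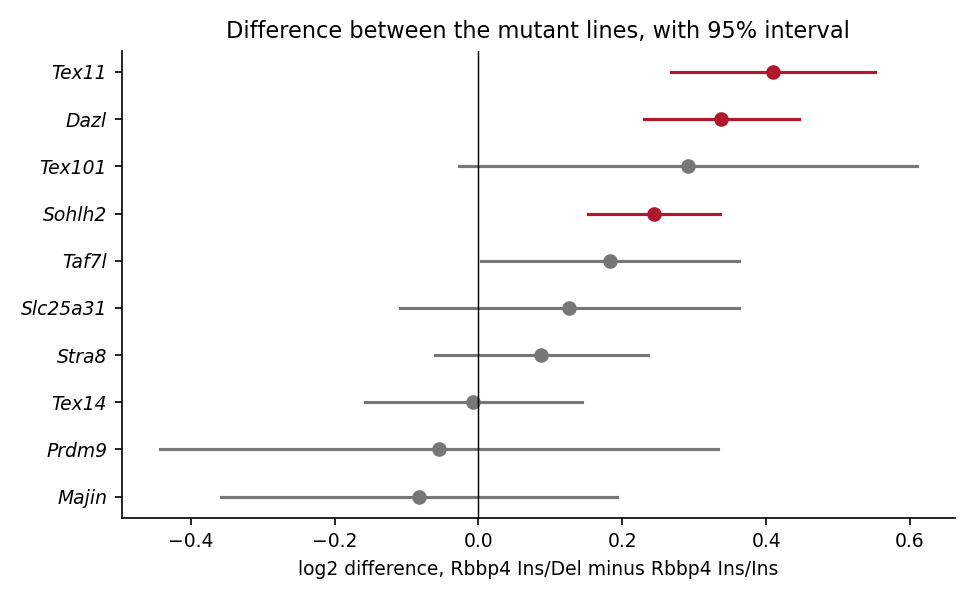
Log2 difference of the Ins/Del line minus the Ins/Ins line for each of the 10 genes, as a point with its 95% interval from the edgeR fit, in red where the adjusted p was at most 0.01. Tex11 (0.41), Dazl (0.34) and Sohlh2 (0.24) are red, and the estimates of Tex14, Prdm9 and Majin (-0.01, -0.05 and -0.08) lie close to 0, with signs that changed between settings.

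Levels can be compared between genes only per length of exon, and for this each normalized count was divided by the kilobases of the gene's merged exons and scaled per 1000000 reads. In the Ins/Del line the order from high to low was Sohlh2 with 38.2 ± 0.98 (SD, n = 3), Stra8 with 13.7 ± 1.16, Dazl with 13.0 ± 0.36, Taf7l with 8.84 ± 1.28, Tex11 with 8.84 ± 0.39, Tex14 with 5.15 ± 0.40, Majin with 4.24 ± 0.74, Slc25a31 with 3.87 ± 0.17, Tex101 with 3.15 ± 0.22 and Prdm9 with 0.64 ± 0.14. In that line the libraries overlapped between Stra8 and Dazl, between Taf7l and Tex11, between Tex14 and Majin and between Majin and Slc25a31. The Ins/Ins line had the same order, with Sohlh2 at 32.3 ± 0.28, and there Stra8 and Dazl did not overlap while Taf7l and Tex11, and Tex14 and Majin, did. In the control, Sohlh2 was again highest with 4.99 ± 0.63, Dazl with 3.80 ± 0.23 stood above Stra8 with 2.94 ± 0.38, and Tex101 with 0.18 ± 0.04 was lowest, below Prdm9 with 0.31 ± 0.03. Among 13866 tested genes with an exon length, Sohlh2 moved from percentile 49.8 of the level per length in the control to 88.4 in the Ins/Ins line and 90.1 in the Ins/Del line. Prdm9 stayed low, at percentile 10.4 in the control, 18.8 in the Ins/Ins line and 18.1 in the Ins/Del line.

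**Figure D3:**
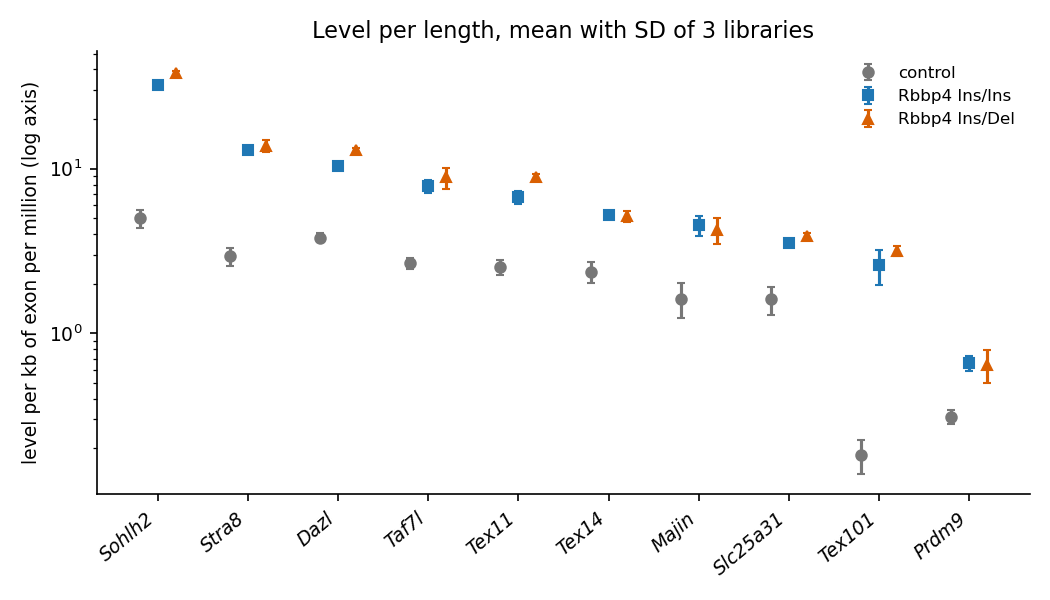
Level per kilobase of exon per 1000000 reads (log axis) of the 10 genes, as the mean with SD of 3 libraries in control (circles), the Ins/Ins line (squares) and the Ins/Del line (triangles), ordered by the level in the Ins/Del line. Sohlh2 is highest in all lines, from 4.99 in the control to 38.2, and Tex101 is lowest in the control (0.18) and Prdm9 in both mutants (0.66 and 0.64).

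Genes that work with the 10 regulators were read from lists of their partners and of other germ cell genes, none of them a member. The list of partners also holds the paralogues Taf7, Slc25a4 and Slc25a5. Of its 18 genes tested, 8 rose and 2 fell in both mutants, beside 25.6% and 26.7% of all genes tested, and the median log2 fold change of the list was 0.11 in each mutant. Slc25a5 is among the 8 and Slc25a4 among the 2. The 4 that rose by over 2-fold were Ly6k, Dpep3, Ace and Nxf2. Ly6k, Dpep3 and Ace encode surface proteins that bind TEX101 or, in the case of ACE, release it from sperm. Ly6k rose from 2.61 ± 1.55 normalized counts (SD, n = 3) in the control to 37.9 ± 13.2 in the Ins/Ins line and 48.2 ± 5.19 in the Ins/Del line (edgeR adjusted p = 2.69e-10 and 5.65e-12). Dpep3 rose from 3.01 ± 2.22 to 19.7 ± 6.07 and 23.0 ± 5.78 (edgeR adjusted p = 5.32e-06 and 7.52e-07), and the control libraries of both genes held at most 5 reads. Ly6k and Dpep3 thus passed the filter on low counts through their mutant libraries. This favours a call of a rise, so the 8 and the 4 above rest partly on the filter. Ace rose from 11.0 ± 2.96 to 116 ± 6.24 and 177 ± 27.7 (edgeR adjusted p = 9.48e-17 and 3.33e-20), and it was also higher in the Ins/Del line than in the Ins/Ins line by 0.61 on the log2 scale (adjusted p = 0.000464, edgeR). Deposited reads per gene do not separate the testis form of Ace, read from an internal promoter, from the somatic form.

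Nxf2, which encodes an RNA export factor of germ cells, rose from 10.1 ± 3.26 normalized counts to 50.2 ± 8.62 and 64.0 ± 4.10 (edgeR adjusted p = 1.01e-09 and 9.63e-12). Cep55, the partner of TEX14 at the bridge, rose by less, with log2 fold changes of 0.61 and 0.69 (edgeR adjusted p = 7.58e-18 and 1.64e-19). Kif23 and Racgap1, which build the same midbody, had log2 fold changes of 0.03 or less in size, which did not pass the test (adjusted p = 0.462 and 0.948 for Kif23, 0.79 and 0.986 for Racgap1, edgeR).

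**Figure D4:**
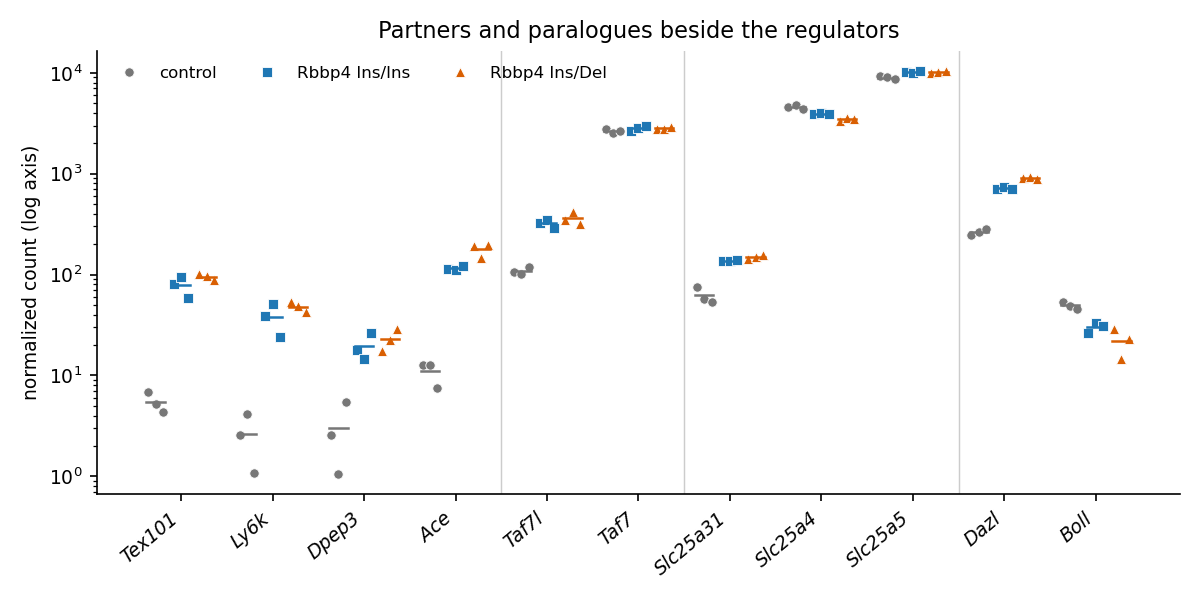
Normalized counts (log axis) in the 9 libraries, with a bar at each line's mean, of Tex101 beside its partners Ly6k, Dpep3 and Ace, of Taf7l beside Taf7, of Slc25a31 beside Slc25a4 and Slc25a5, and of Dazl beside Boll. The mutant points of the 3 partners lie above the control as those of Tex101 do, Taf7 stays near 2649 to 2826, and Boll falls from 49.5 to 22.1.

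In 4 lists of other germ cell genes, 54 of 65 listed genes were tested, and 19 rose and 8 fell in both mutants, of which 8 and 3 passed 2-fold. Over all genes tested, 25.6% rose and 26.7% fell in both, and 6.58% and 8.10% did so by over 2-fold. The lists differed in direction. Of 20 genes of recombination and crossover formation 9 rose and none fell, of 7 genes of telomere attachment 4 rose and none fell, of 14 germ cell transcription factors 5 rose and 1 fell, and of 13 germ cell RNA regulators 1 rose and 7 fell. Listed genes that did not pass the filter could not count in either direction. The 4 telomere genes were Terb2, Ccdc155, Sun1 and Cdk2. Sun1 and Cdk2 had means of 2106 and 1475 normalized counts in the control, so this list is not confined to genes low in ESCs. The median log2 fold change was 0.43 and 0.56 for the recombination genes, 0.55 and 0.74 for the telomere genes, 0.36 and 0.29 for the transcription factors and -0.44 and -0.67 for the RNA regulators.

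Beside Prdm9 and Tex11, the recombination genes beyond 2-fold were Rec114, Hormad1, Hormad2 and Hsf2bp. Rec114, needed for the breaks that start recombination, rose from 57.1 ± 4.41 normalized counts (SD, n = 3) to 375 ± 45.9 and 423 ± 18.8 (edgeR adjusted p = 8.61e-23 and 5.55e-24). Hormad1, an axis protein of meiotic chromosomes, rose from 263 ± 0.81 to 1190 ± 32.8 and 1250 ± 31.5 (edgeR adjusted p = 2.81e-29 and 5.88e-30), and its relative Hormad2 rose from 40.2 ± 2.71 to 175 ± 20.4 and 243 ± 9.45 (edgeR adjusted p = 1.34e-16 and 3.07e-20). Hsf2bp, which brings BRCA2 to meiotic breaks, rose by 1.07 and 1.16 on the log2 scale (edgeR adjusted p = 2.17e-21 and 1.22e-22). Spo11, which cuts the DNA, had at most 2 reads in every library.

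Beside Majin, its partner Terb2 rose from 41.4 ± 6.85 normalized counts to 129 ± 22.8 and 150 ± 6.61 (edgeR adjusted p = 1.72e-11 and 1.79e-13). Terb1, the other subunit, had log2 fold changes of 0.66 and 0.89 and passed the limit only in the Ins/Del line (adjusted p = 0.0542 and 0.00735, edgeR), and the difference between the lines did not pass the test (adjusted p = 0.604).

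Beside Sohlh2 and Taf7l, the transcription factors beyond 2-fold were Ctcfl, the germ cell paralogue of CTCF, and Rhox10. Ctcfl rose from 39.6 ± 3.89 to 172 ± 12.2 and 194 ± 6.0 normalized counts (edgeR adjusted p = 1.17e-16 and 4.0e-18). Rhox10 had 5 reads over the control libraries, 76 in the Ins/Ins line and 114 in the Ins/Del line, ratios of 15.4 and 23.6 after scaling, with 95% counting intervals of 6.33 to 48.9 and 9.80 to 73.9.

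Beside Dazl, Rbm44 was the single RNA regulator of its list that rose, from 135 ± 13.3 normalized counts to 357 ± 40.5 and 464 ± 19.5 (edgeR adjusted p = 3.44e-16 and 5.98e-20). Dnd1, Cpeb1 and Rbm46 fell by over 2-fold. Cpeb1, which governs poly(A) tails in oocytes, fell from 423 ± 18.3 to 142 ± 13.3 and 119 ± 2.09 (edgeR adjusted p = 1.66e-18 and 2.72e-20), and Dnd1, which protects primordial germ cells, fell from 188 ± 9.40 to 73.5 ± 2.37 and 65.4 ± 12.9 (edgeR adjusted p = 4.79e-12 and 4.11e-13). Rbm46 fell by 1.46 and by 1.83 on the log2 scale (edgeR adjusted p = 1.97e-07 and 4.37e-09).

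**Figure D5:**
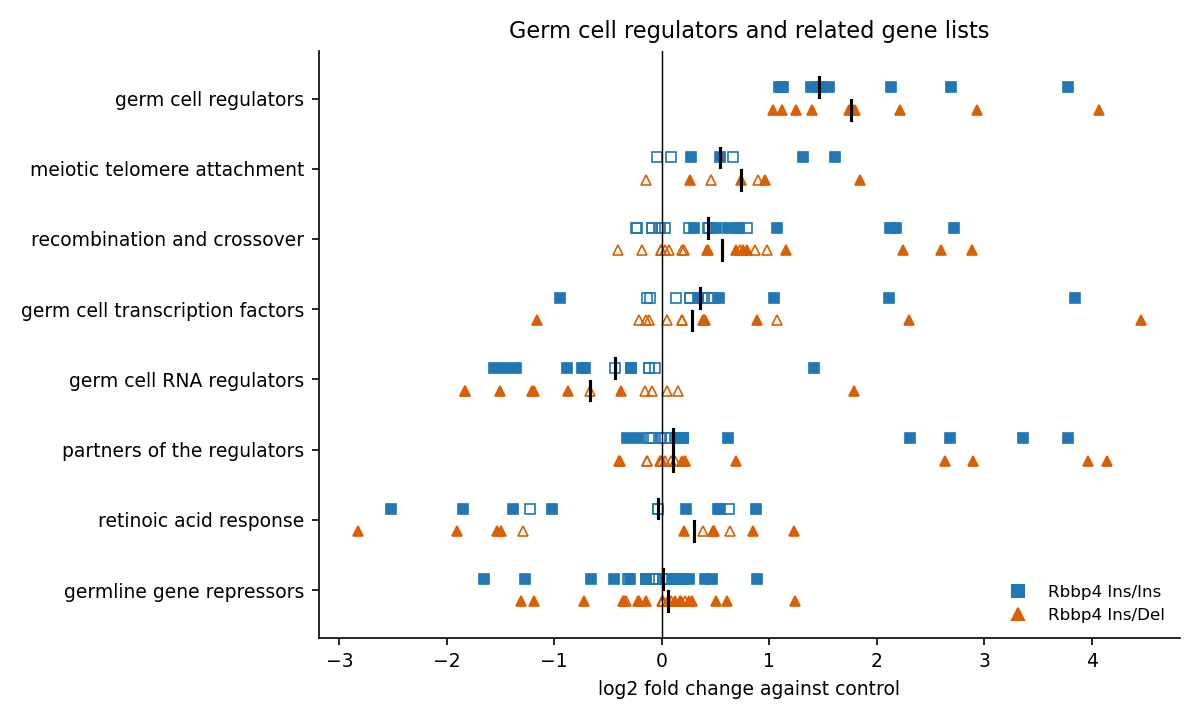
Log2 fold change against control of the 10 germ cell regulators (top row, chosen on this contrast) and of the genes tested in 7 related lists, in the Ins/Ins line (squares) and the Ins/Del line (triangles), filled in the lists where the gene passed the limit of 0.01 in the same direction in both mutants, with a black bar at each median. The medians of the recombination genes (0.43 and 0.56) and telomere genes (0.55 and 0.74) lie above 0 and those of the RNA regulators (-0.44 and -0.67) below it.

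Genes of retinoic acid transport, breakdown and response were set beside Stra8. Of 12 tested, 4 rose and 4 fell in both mutants, beside 25.6% and 26.7% of all genes tested, with medians of -0.03 and 0.30. The 4 that rose were Crabp1, Rarg, Rxra and Rara, with log2 fold changes of 0.88, 0.53, 0.54 and 0.22 in the Ins/Ins line. In the Ins/Del line these were 1.23, 0.85, 0.48 and 0.21. Among those that fell by over 2-fold were Cyp26a1 and Dhrs3, both of which retinoic acid induces in many cells. Cyp26a1, which breaks retinoic acid down, fell from 24.5 ± 3.48 normalized counts (SD, n = 3) to 9.54 ± 2.45 and 6.67 ± 2.85 (edgeR adjusted p = 0.000509 and 2.03e-05). Dhrs3, a retinal reductase, fell with log2 fold changes of -1.85 and -1.53 (edgeR adjusted p = 1.9e-10 and 5.32e-09). Stra8, which was chosen for being higher, stood opposite to Cyp26a1 and Dhrs3 in each line and on the side of the 4 that rose. The part of retinoic acid was not tested.

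Of 23 genes that hold germ cell genes down in ESCs, 8 rose and 7 fell in both mutants, beside 25.6% and 26.7% of all genes tested. The median log2 fold change of the 23 was 0.01 and 0.06. The changes beyond 2-fold in both were of the de novo DNA methyltransferases, which fell. Dnmt3b fell from 10335 ± 324 normalized counts (SD, n = 3) to 4271 ± 67.3 and 4540 ± 121 (edgeR adjusted p = 1.1e-30 and 6.17e-30). Dnmt3a fell from 3208 ± 98.6 to 1024 ± 47.3 and 1291 ± 11.6 (edgeR adjusted p = 1.76e-30 and 8.12e-28). Dnmt3l, their cofactor without activity of its own, rose instead, with log2 fold changes of 0.88 and 1.24 (edgeR adjusted p = 2.83e-26 and 3.12e-31). E2f6, whose product binds TTCCCGC, fell by less, with log2 fold changes of -0.66 and -0.73 (edgeR adjusted p = 7.04e-12 and 4.87e-13), Mga rose by 0.41 and 0.51 (edgeR adjusted p = 2.87e-14 and 3.61e-17), and Pcgf6 did not pass the test, with 0.04 and 0.06 (adjusted p = 0.356 and 0.142, edgeR). DNA methylation was not measured, and the part of these genes in the level of the 10 regulators was not tested.

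Markers of other cell types moved between the lines too. Over all genes tested, 25.6% rose and 26.7% fell in both mutants. All 10 tested markers of 2-cell-like cells, among them the Zscan4 genes, rose in both mutants, and their summed level was 1586 to 1635 normalized counts in the control, 4016 to 4245 in the Ins/Ins line and 5714 to 5942 in the Ins/Del line. Of these 10 markers, 8 were higher in the Ins/Del line than in the Ins/Ins line at the limit of 0.01, beside 6.17% of the genes tested. Of the regulators, Tex11, Dazl and Sohlh2 were higher too, and the other 7 did not pass this limit. Of 5 oocyte markers tested, Zp3, Oas1d, Padi6 and Tle6 rose in both. Oas1d, with 3 to 10 reads per control library, and Padi6 passed the filter through the mutant libraries, which favours a rise. Mos, which was not tested, had 4 to 9 reads per control library and 0 to 3 per mutant library. Padi6 had at most 2 reads in a control library and 1 read in Ins/Del replicate 1, so its mutant libraries did not all lie above the control. The summed level of the 12 on the list was 163 to 176 in the control, 397 to 447 in the Ins/Ins line and 426 to 509 in the Ins/Del line, with the egg coat gene Zp1 at 0 to 3 reads a library. The 15 spermatid markers summed to 19.7 to 36.8, 47.4 to 58.2 and 59.3 to 78.7. Of these Ldhc alone made up 14.5 to 30.3, 44.0 to 48.8 and 54.2 to 69.4. Of 9 trophectoderm markers tested 2 rose and 4 fell, with sums of 3864 to 4261, 1058 to 1152 and 802 to 905, and of 9 primitive endoderm markers 1 rose and 2 fell, with sums of 2766 to 3047, 2599 to 2794 and 3742 to 3826. Such sums follow the few markers with the highest counts, and other markers of the same list went the other way or did not pass the limit. The 14 markers of the somatic gonad summed to 389.8 to 461, 313 to 371 and 451 to 487, and of the 3 tested 1 rose and 1 fell in both mutants. Wt1 fell from 305 ± 28.7 normalized counts (SD, n = 3) to 23.0 ± 7.14 and 21.3 ± 6.96 (edgeR adjusted p = 2.8e-22 and 1.95e-22), and Cyp11a1, which starts steroid synthesis, rose from 58.2 ± 3.54 to 254 ± 23.5 and 386 ± 11.1 (edgeR adjusted p = 6.8e-19 and 1.34e-23). The part of these cell types in the level of the 10 genes was not tested.

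The nearest tested gene on each side of the 10 genes gave 20 neighbours, at a median distance of 26.3 kb. Of these 6 rose and 4 fell in both mutants, beside 25.6% and 26.7% of all genes tested, and their median log2 fold change was 0.08 and 0.14. Rad51c, a recombination gene that lies 0.111 kb from Tex14, rose by 0.47 and 0.34 on the log2 scale (edgeR adjusted p = 1.39e-06 and 0.000251). The 3 neighbours that rose by over 2-fold were Drp2 beside Taf7l, Ccdc169 beside Sohlh2 and Cd177 beside Tex101, and they are named after their values were seen. Drp2, 3.54 kb from Taf7l, rose from 15.1 ± 3.69 normalized counts (SD, n = 3) to 55.9 ± 11.6 and 80.9 ± 7.04 (edgeR adjusted p = 6.83e-09 and 3.73e-12). Ccdc169, 9.09 kb from Sohlh2, rose from 2.36 ± 1.74 to 21.5 ± 6.90 and 18.8 ± 2.73 (edgeR adjusted p = 5.07e-07 and 2.13e-06), and Cd177 from 0.722 ± 1.25 to 9.51 ± 1.61 and 9.48 ± 7.33 (edgeR adjusted p = 0.000364 and 0.000386). With so few control reads, Ccdc169 and Cd177 passed the filter, and so counted as nearest tested genes, through the mutant libraries. This favours a rise, so the 6 of 20 rests partly on the filter. Slc7a3, an amino acid transporter gene beside Tex11, fell by 0.51 and by 0.55 on the log2 scale (edgeR adjusted p = 4.3e-16 and 2.56e-17).

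The mean pattern of the 10 genes over the 9 libraries was compared with that of every other gene. Pearson's r was highest for Glb1 (0.9996), Rpl10l (0.9995), Hnf4a (0.9993), Tex19.1 (0.9992) and Mfge8 (0.9990), each over 9 points that share 3 lines, and 1670 of 14115 genes had an r above 0.95. Glb1 encodes lysosomal beta-galactosidase, Rpl10l a ribosomal protein of spermatocytes, Hnf4a a nuclear receptor of liver and endoderm, Tex19.1 a germ cell and placental protein and Mfge8 a secreted milk fat globule protein. Tex19.1 stood at 1123 ± 38.1 normalized counts in the control (SD, n = 3), 4746 ± 116 in the Ins/Ins line and 5050 ± 126 in the Ins/Del line.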

How the data were processed

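The 9 libraries were poly(A) RNA libraries read as paired ends of 50 bases. Per the labels and methods, the authors aligned them to mm10 with STAR 2.7.3 and used HTSeq to count the reads of each gene. The annotation and the strand setting are not given in the sources used here. The authors deposited these whole-number counts without normalization. From them, edgeR 4.0.16 (R 4.3.3) computed TMM factors, filtered genes with filterByExpr and fitted its quasi-likelihood model to the 3 groups without covariates. A gene low in the control can pass this filter through the mutant libraries alone, which favours a rise among such genes. A gene low in the mutants can pass it through the control libraries. P-values were adjusted by the Benjamini-Hochberg method over 14125 genes, and called at 0.01 or less. Intervals and ratios of few reads cover counting error only. The fit was first tested on simulated data.

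The members and the gene lists were chosen with earlier results of these data known. Named were every member, list genes called beyond 2-fold in both mutants (some are not reported here), set paralogues, Ddx4, Rbbp4 and the 5 genes of highest Pearson r. Gm4969, Ccdc155, Sun1, Cdk2, Dmrt1, Nr6a1, Terb1, Spo11, Cep55, Kif23, Racgap1, Crabp1, Rarg, Rxra, Rara, E2f6, Mga, Pcgf6, Dnmt3l, Rad51c, Slc7a3 and the cell type markers named were added for their role, position or change after their values were seen. Of the 65 germ cell genes listed, Speedya was not among the symbols. Alternatives were DESeq2 1.42.0, its size factors, total counts, no filter, the 2 groups alone, a replicate block, a limit of 0.05 and each library left out. Promoters are RefSeq's and exons GENCODE M21's.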

Additional observations from a re-analysis of the deposited data

Results flagged for a closer look

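Of the genes named, 14 stood out because the mutant lines differed from each other at an adjusted p of at most 0.01 in edgeR's quasi-likelihood test. Over all genes tested, 10.8% differed at this limit. The count leaves out Rarg, Sun1 and the tested Zscan4 genes, which also passed it. Their log2 differences of the Ins/Del line minus the Ins/Ins line were 0.32 for Rarg, 0.19 for Sun1 and 0.42 to 0.62 for the Zscan4 genes. Rbbp4 itself had a log2 difference of the Ins/Del line minus the Ins/Ins line of 0.89. Among the germ cell regulators these were Tex11 with 0.41, Dazl with 0.34 and Sohlh2 with 0.24. Among the related genes they were Gm4969 with 0.70, Ace with 0.61, Hormad2 with 0.48, Rbm44 with 0.37, Dnmt3l with 0.35, Dnmt3a with 0.34, Rpl10l with 0.17, Slc25a4 with -0.17 and Nr6a1 with -0.21, and among the markers of other cell types Cyp11a1 with 0.62. In all of these the 3 libraries of one mutant line lay apart from the 3 of the other. Dnmt3a, which fell in both lines, fell less in the Ins/Del line. An effect of the alleles and a property of the clones cannot be told apart.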

How the results depend on the processing

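The number of regulators that differed between the mutants (3) was the same under each alternative run, including each library left out in turn, and Tex11, Dazl and Sohlh2 kept adjusted p-values of at most 0.00268 between the mutants. With the replicate number as a block, 3 regulators were again called. Same-numbered libraries did not deviate together (r from -0.03 to 0.06), so the numbers do not pair the samples.

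The sign of 3 small differences between the mutants turned. With DESeq2 size factors inside edgeR, Tex14 went from -0.01 to 0.0035. With single libraries left out, Tex14 ranged from -0.044 to 0.051, Prdm9 from -0.235 to 0.038 and Majin from -0.249 to 0.033, none past the limit. Tex14 turned without Ins/Ins replicate 3 or Ins/Del replicate 3, Prdm9 without Ins/Del replicate 1 or 2, and Majin without Ins/Ins replicate 3. Without control replicate 1, the log2 fold change of Slc25a31 was 1.31 in the Ins/Ins line and 1.43 in the Ins/Del line. That of Prdm9 in the Ins/Del line ranged from 0.86 to 1.13 over the alternatives, so it did not stay above 2-fold in all of them. With a 2-fold limit, 8 other germ cell genes rose and 3 fell in both mutants in place of 19 and 8. By Spearman's rho, 0 of the 5 genes most like the regulators were at the highest rho of 1.0, which 6 genes reached. With the bases before the start site alone, 2 genes held TTCCCGC in place of 3. Depth limits Tex101 and Prdm9 most.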
